A study of Mus musculus with 8 samples.

Results

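The pyruvate dehydrogenase genes are 10 genes chosen by name from the 12551 genes counted in tibialis anterior (TA) muscle: *Pdha1*, *Pdhb*, *Dlat* and *Dld* of the enzyme itself, the kinases *Pdk1*, *Pdk2*, *Pdk3* and *Pdk4*, and the phosphatase subunits *Pdp1* and *Pdpr*. All 10 were present in the table and all 10 were tested. RNA came from whole TA muscles of 4 wild-type (WT, Klotho wt/wt) and 4 homozygous mutant (KL-/-, Klotho null/null) mice. All 8 were males, 7 weeks old, on a mixed background and fed chow. The mutation is carried in every tissue, so muscle cells and whole-body state cannot be told apart in it, and whole muscle holds other cell types beside myofibres. Fewer cells of a type and less RNA per cell cannot be told apart in such samples either. Klotho is the obligate partner of a phosphate-regulating hormone's receptor in the kidney. Its transcript is not among the genes counted, so within these data the genotypes rest on the labels. The paper genotyped its mice by PCR and detected neither Klotho protein nor *Kl* mRNA in KL-/- muscle.

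Pyruvate dehydrogenase is the mitochondrial complex that turns pyruvate into acetyl-CoA and so links glycolysis to the citric acid cycle. In muscle it sets how much glucose carbon is burned. The kinases phosphorylate its E1 component and switch it off, and the phosphatases remove the phosphate and switch it on. PDK2 is the broadly expressed kinase, and PDK4 is known as the one whose transcript follows fasting, fatty acids and glucocorticoids. A transcript level says nothing by itself of the phosphorylation or the activity of the enzyme.

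The libraries held 20860262 to 29273758 counts, and levels are given as CPM, counts scaled to library size, after TMM normalisation, which sets most genes level between libraries. KL-/- replicate 3 carried another batch date than the other 7 libraries, so the fits without it are also the values within 1 batch. KL-/- replicate 2 stood apart from the other 3 mutants in *Pdk2* and *Pdk4*, and both are given with and without it. The 10 listed skeletal muscle genes were high in every library, with a summed level of 157317 to 178443 CPM in WT and 182817 to 225529 CPM in KL-/- mice. These sums did not overlap between genotypes. None of the 10 genes passed the main test (median log2 fold change 0.24), while DESeq2 called 4 of them higher, limma-voom 2, the likelihood ratio test 2 and the edgeR 3 test 1.

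The E1 alpha subunit *Pdha1*, which holds the phosphorylated sites, had the highest mean level per length of the group, and its WT levels were 1170, 1184, 1064 and 1023 CPM in replicates 1 to 4. The KL-/- levels were 1202, 1143, 1367 and 1405 CPM. In KL-/- muscle 3 mice lay above all WT mice and 1 lay inside the WT range. The means were 1110 ± 79.3 and 1279 ± 127 CPM (SD, n = 4 each), a log2 fold change of 0.20 (SE 0.091) that did not pass in edgeR's quasi-likelihood test (FDR = 0.154 over all 12551 genes, unadjusted p = 0.0489). Without KL-/- replicate 2 it was 0.26 (FDR = 0.0529). Its exons overlap those of *Map3k15* on the other strand, and since the use of strand in counting is not given in the sources used here, its counts are uncertain to that extent.

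The E1 beta subunit *Pdhb* had a nearly level mean, 318 ± 17.5 CPM in WT and 328 ± 32.8 CPM in KL-/- mice (log2 fold change 0.043, SE 0.080, FDR = 0.744 in the quasi-likelihood test). Its WT mice ranged from 299 to 337 CPM and its KL-/- mice from 290 to 365 CPM, so the mutants reached past WT at both ends. Per length, *Pdha1* over *Pdhb* was 2.04, 1.94, 1.70 and 1.84 in the WT mice and 2.06, 2.12, 2.15 and 2.07 in the KL-/- mice. All 4 mutant ratios were above the WT ratios, the nearest pair differing only in the second decimal. This ratio was looked at after the values were seen and is given as a description.

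*Dlat*, the E2 core that moves the acetyl group onto coenzyme A, measured 384, 375, 353 and 353 CPM in WT and 331, 310, 346 and 384 CPM in KL-/- mice. Replicates 1 to 3 of the mutants were below every WT mouse, and replicate 4 was above them. The log2 fold change was -0.095 (SE 0.074, FDR = 0.398 in edgeR's test). *Dld*, the E3 that reoxidises lipoate and is shared with the other 2-oxoacid dehydrogenases, ranged from 368 to 408 CPM in WT and from 387 to 455 CPM in KL-/- mice, with 2 mutants above all WT mice (log2 fold change 0.11, SE 0.068, FDR = 0.289). *Pdhx*, which anchors E3 to the core, was no member and stood beside them at -0.059 (FDR = 0.504). The 4 catalytic subunits together gave 2044 to 2278 CPM in WT and 2130 to 2609 CPM in KL-/- mice, overlapping ranges.

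**Figure D1:**
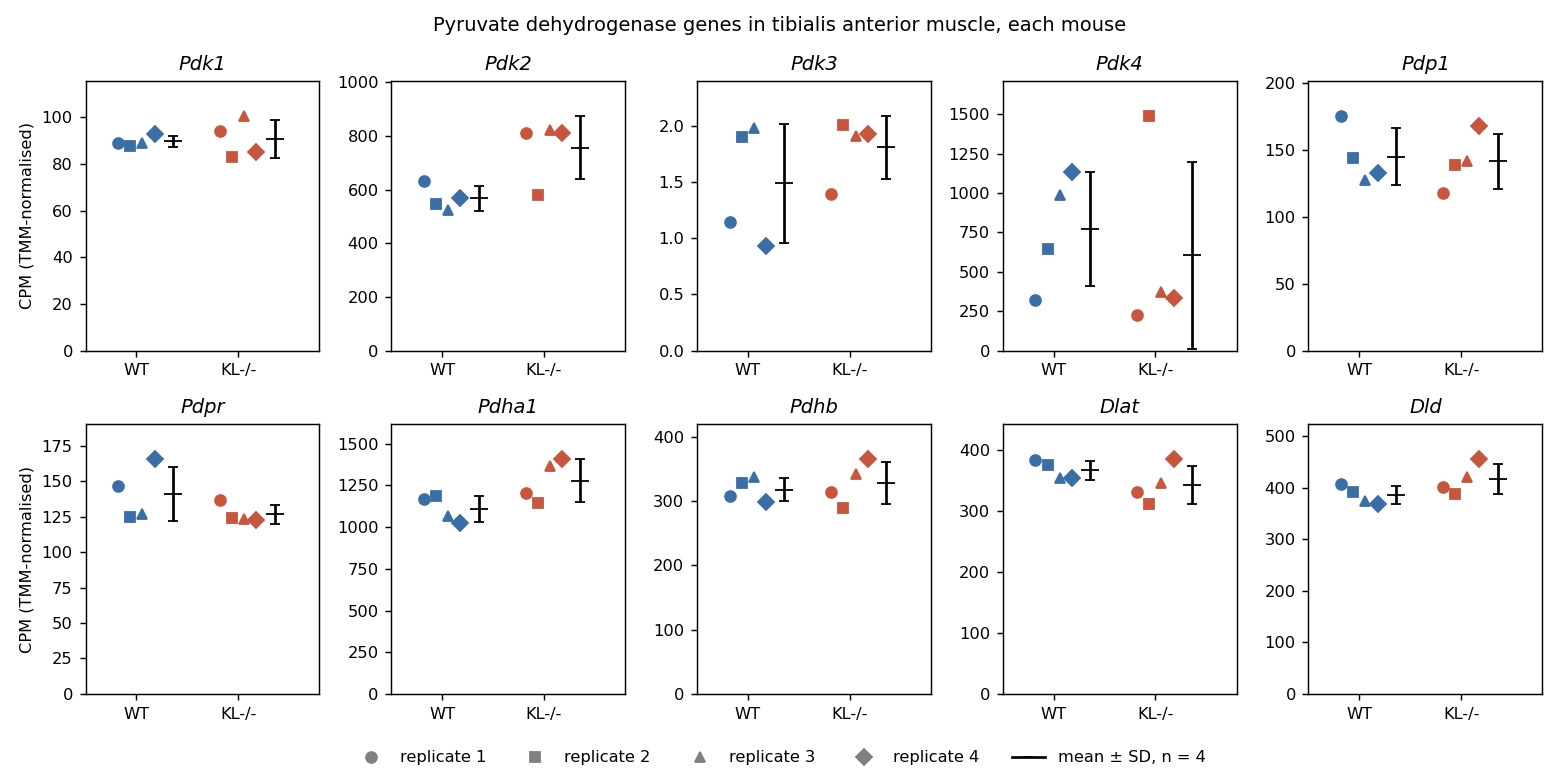
TMM-normalised CPM of the 10 genes in each of the 4 WT (blue) and 4 KL-/- (red) mice on axes from 0, one marker shape per replicate number, with the mean ± SD of each genotype in black. *Pdk4* spreads from 227 to 1487 CPM within the KL-/- mice, *Pdk2* has 3 mutants at 811 to 821 CPM and 1 at 580 CPM, and no gene has genotypes free of overlap.

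Among the kinases *Pdk2* rose in KL-/- muscle, the only one of the 10 genes to pass the test with all 8 mice. The WT levels were 630, 547, 523 and 570 CPM, and the KL-/- levels were 812, 580, 821 and 811 CPM. Replicates 1, 3 and 4 of the mutants were above every WT mouse, whereas replicate 2 lay inside the WT range. The means were 568 ± 46.0 and 756 ± 117 CPM, 1.33-fold (log2 fold change 0.41, SE 0.12, edgeR quasi-likelihood FDR = 0.0440). Against it, 7.35% of all genes were called higher and 6.67% lower, and 19.7% had genotypes that did not overlap. The members' count of 1 higher and 0 lower of 10 was thus near the background, none of the 10 was free of overlap, and 2 had an unadjusted p under 0.05 (*Pdk2* and *Pdha1*).

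The *Pdk2* call sat close to the threshold. It was lost in 7 of the 8 fits that left out 1 mouse, with FDR values of 0.0527, 0.109, 0.117 and 0.0758 without WT replicates 1 to 4 and of 0.0877, 0.114 and 0.115 without KL-/- replicates 1, 3 and 4. Without KL-/- replicate 2 the log2 fold change was 0.53 and the FDR 0.00255. That mouse was singled out by its own *Pdk2* and *Pdk4* levels, so this FDR is no independent test. The direction held in all 8 of these fits, from 0.37 to 0.53. Scaling by library totals, which moved the median of all genes from -0.016 to -0.13 and turned the split of calls from 922 higher and 837 lower to 493 higher and 2131 lower, left *Pdk2* at 0.30 (FDR = 0.0956).

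*Pdk4* varied from mouse to mouse far more than it differed by genotype. The WT levels were 319, 648, 989 and 1131 CPM and the KL-/- levels were 227, 1487, 370 and 335 CPM in replicates 1 to 4. The highest and the lowest of the 8 values were both in mutants. The ratio of highest to lowest was 3.54 in WT and 6.57 in KL-/- muscle. The means of 772 ± 364 and 605 ± 591 CPM gave a log2 fold change of -0.35 (SE 0.59, FDR = 0.711 in the quasi-likelihood test).

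Within a genotype the SD of *Pdk4* was 1.02 on the log2 CPM scale, against a median of 0.159 over all genes, and 99.4% of genes had a smaller one. Of the 139 genes with an average level at least that of *Pdk4*, only 3 had a larger SD. *Pdk1*, *Dld*, *Dlat*, *Pdhb*, *Pdha1*, *Pdpr*, *Pdk2* and *Pdp1* had SD values from 0.085 to 0.21 on the same scale, and the low *Pdk3* had 0.40. Without KL-/- replicate 2 the 3 remaining mutants were 227 to 370 CPM, *Pdk4* was lower in KL-/- muscle by a log2 fold change of -1.30 (SE 0.39), and the call passed at FDR = 0.0451. WT replicate 1, at 319 CPM, still lay among those mutants. KL-/- replicate 2 was singled out by its own *Pdk2* and *Pdk4* levels, so this FDR is a description and no independent test. In that fit the calls over all genes also rose from 1759 to 2755. In the other 7 fits with 1 mouse left out the log2 fold change was between -0.61 and -0.071 and the call did not pass.

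*Pdk1*, the kinase known as a hypoxia-inducible gene, was 87.8 to 93.0 CPM in WT and 83.0 to 100.5 CPM in KL-/- muscle. With 2 mutants above and 2 below all WT mice, its log2 fold change was 0.017 (SE 0.069, FDR = 0.888). *Pdk3* was the lowest of the 10 genes, with 28, 41, 52 and 26 counts in the WT mice and 40, 42, 46 and 51 counts in the KL-/- mice. Its log2 fold change of 0.28 was about as large as its standard error (0.26) and did not pass (FDR = 0.493).

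**Figure D2:**
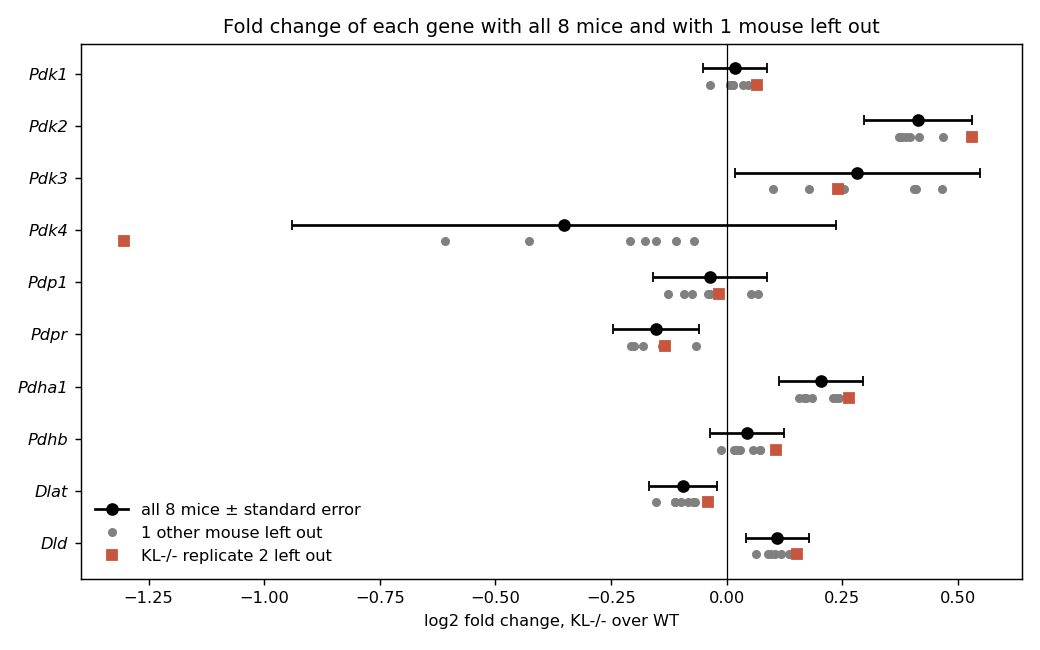
Log2 fold change of KL-/- over WT for each gene, with all 8 mice (black, ± standard error), with 1 mouse left out (grey) and with KL-/- replicate 2 left out (red squares). *Pdk2* stays between 0.37 and 0.53, and *Pdk4* goes from -0.35 to -1.30 without that mouse.

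Levels of different genes can be set side by side only per length, here as CPM per kilobase of the counted exons. In WT muscle *Pdha1* led at 402 ± 28.7 CPM per kilobase, followed by *Pdk2* at 251 ± 20.3, *Pdk4* at 224 ± 105, *Pdhb* at 214 ± 11.8 and *Dld* at 169 ± 7.80 CPM per kilobase. *Pdha1* was above the next gene in every WT mouse. *Pdk4* overlapped its neighbours *Pdk2* and *Pdhb*, and *Dld* and *Dlat* as well, so their order did not hold beyond the spread of *Pdk4*. *Dlat* at 90.8, *Pdhx* at 52.1, *Pdpr* at 48.5, *Pdp1* at 33.0 and *Pdk1* at 17.3 CPM per kilobase followed, with *Pdhx* and *Pdpr* overlapping, while *Pdp2* and *Pdk3* were lowest at 1.56 and 0.744 CPM per kilobase. In KL-/- muscle the order was the same except that *Pdk4*, at 175 ± 171 CPM per kilobase, came after *Pdhb* and *Dld*, although in KL-/- replicate 2 its 431 CPM per kilobase passed the 414 of *Pdha1*.

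**Figure D3:**
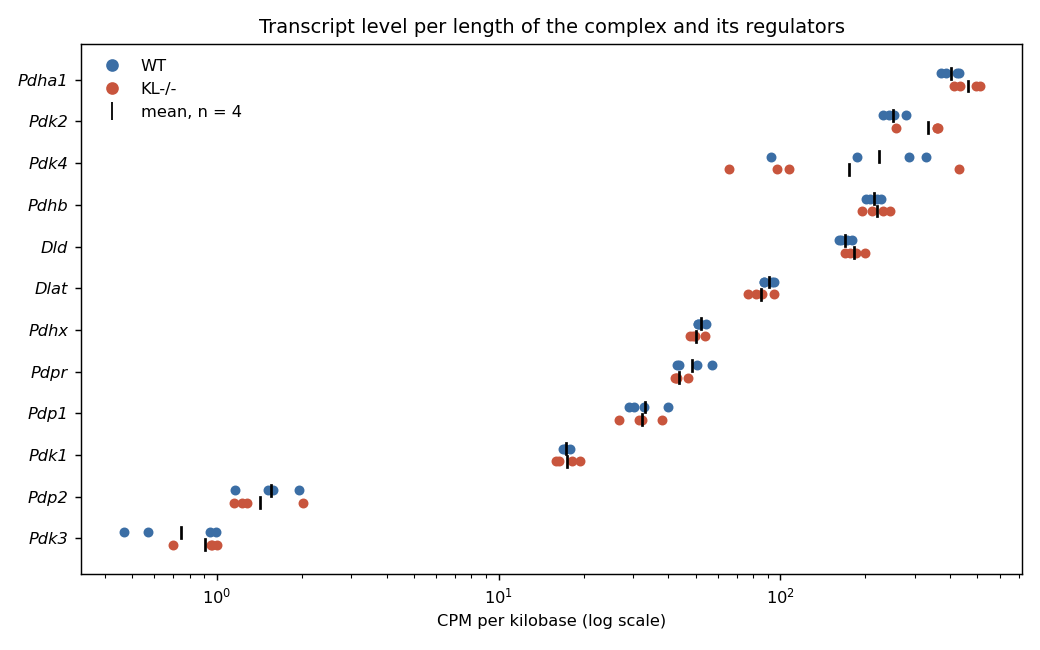
CPM per kilobase on a log axis for the 10 genes with *Pdhx* and *Pdp2*, each dot 1 mouse and each bar the mean of 4, ordered by the WT mean. *Pdha1* is highest and *Pdk3* lowest in both genotypes, and *Pdk4* runs from below *Dlat* to the range of *Pdha1*.

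The leading kinase transcript changed from mouse to mouse. *Pdk2* made up 71.6, 54.1, 43.1 and 42.1% of the kinase CPM per kilobase in the WT mice and 80.9, 36.4, 74.0 and 75.8% in the KL-/- mice. *Pdk4* made up 23.8, 41.9, 53.5 and 54.8% in WT and 14.8, 61.2, 21.9 and 20.5% in KL-/- muscle. *Pdk4* was thus ahead of *Pdk2* in WT replicates 3 and 4 and in KL-/- replicate 2, and *Pdk2* was ahead in the other 5 mice. *Pdk1* gave 2.27 to 4.41% and *Pdk3* at most 0.212% in any mouse. The 4 kinases summed to 389 to 598 CPM per kilobase in WT and 443 to 704 CPM per kilobase in KL-/- muscle, ranges that overlapped.

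**Figure D4:**
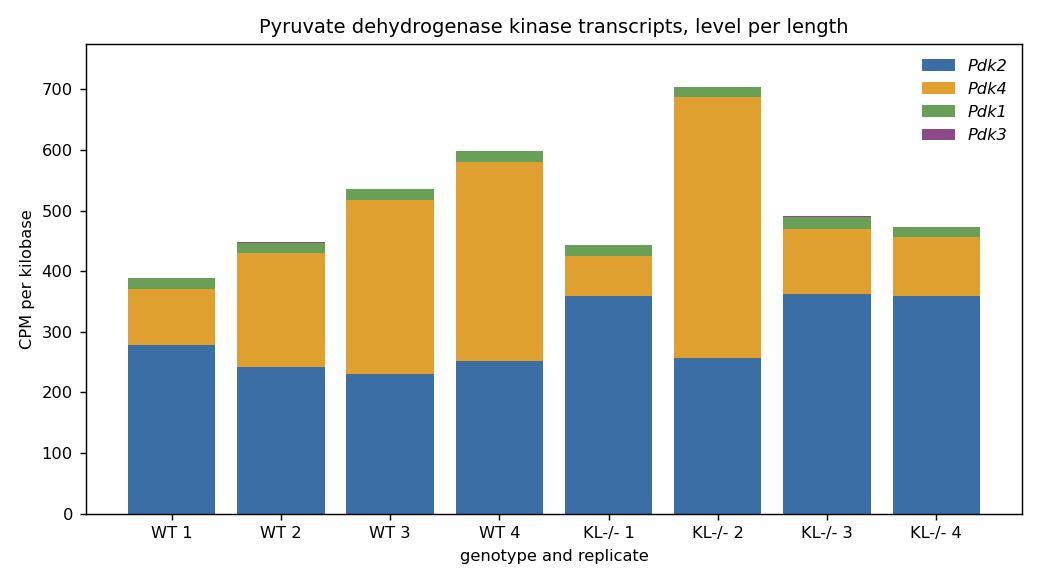
Stacked CPM per kilobase of the 4 kinases in each mouse, from 0. The *Pdk2* part is 231 to 279 in WT and 256 to 363 in KL-/- mice, and the *Pdk4* part runs from 65.6 to 431 CPM per kilobase.

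*Pdp1*, the calcium-activated catalytic phosphatase subunit of muscle, was 175, 144, 128 and 133 CPM in WT and 118, 139, 142 and 168 CPM in KL-/- mice. The ranges overlapped nearly whole (log2 fold change -0.036, SE 0.12, FDR = 0.866 in edgeR's test). *Pdpr*, the regulatory subunit that lowers the phosphatase's sensitivity to magnesium, was 146, 125, 127 and 165 CPM in WT and 136, 124, 123 and 122 CPM in KL-/- mice. In KL-/- muscle 3 mice were below all WT mice by little, and the log2 fold change of -0.15 (SE 0.093) did not pass (FDR = 0.282). Its exons overlap a transcript on the other strand that was also counted, so its counts carry the same doubt about strand as those of *Pdha1*. The second catalytic subunit *Pdp2*, no member, was 4.07 to 6.85 CPM in WT and 4.01 to 7.06 CPM in KL-/- muscle (log2 fold change -0.15, FDR = 0.649).

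The median log2 fold change of the 10 genes was 0.030, beside -0.016 for all genes. Under library totals it was -0.088, beside -0.13. The members lie on 9 chromosomes and thus do not share a place in the genome, *Pdk3* and *Pdha1* being both on X. On mm10, *Pdk2* is at chr11:95026258-95041371 and *Pdk4* at chr6:5483351-5496278, both on the minus strand and both spanning 11 counted exons. The enzyme genes are at chrX:160122219-160138336 (*Pdha1*), chr14:8165991-8172992 (*Pdhb*), chr9:50634633-50659780 (*Dlat*) and chr12:31331562-31351471 (*Dld*). *Pdk1* is at chr2:71873224-71903858, *Pdk3* at chrX:93764616-93832095, *Pdp1* at chr4:11958183-11966450 and *Pdpr* at chr8:111094745-111135144.

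The bases before the start sites of the kinase that rose and the kinase that varied are shown because they differ in composition. They come from RefSeq promoters on GRCm38.p6, where 9 of the 10 members matched by symbol. The *Pdk2* stretch is chr11:95041372-95041621 and the *Pdk4* stretch is chr6:5496310-5496528, both written 5′ to 3′ on the minus strand, and the *Pdk4* stretch stops before the first base of the longest annotated transcript. Capitals mark a match to an E-box.

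Pdk2: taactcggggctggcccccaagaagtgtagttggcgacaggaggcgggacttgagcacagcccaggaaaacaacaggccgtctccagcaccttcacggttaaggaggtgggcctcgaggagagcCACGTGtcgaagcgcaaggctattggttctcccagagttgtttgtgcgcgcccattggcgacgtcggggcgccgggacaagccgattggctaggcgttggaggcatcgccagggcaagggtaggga

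Pdk4: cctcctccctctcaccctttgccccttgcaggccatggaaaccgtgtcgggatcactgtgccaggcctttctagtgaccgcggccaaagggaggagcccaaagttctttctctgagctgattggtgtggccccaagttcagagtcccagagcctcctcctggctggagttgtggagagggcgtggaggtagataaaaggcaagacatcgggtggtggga

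In the 250 bases before the RefSeq start site, *Pdk2* had a GC content of 62.4% and 19 CpG, and *Pdk4* had 58.8% and 6 CpG, against medians of 52.4% and 6 CpG over 32851 promoters. The following letter strings were searched on both strands: the FOXO core GTAAACA, held by 3.17% of all promoters, the glucocorticoid receptor half-site AGAACA (16.1%), the nuclear receptor half-site AGGTCA (14.0%), the Sp1 box GGGCGG (32.7%), the E-box CACGTG (6.02%) and the TATA box TATAAA (12.4%). The *Pdk2* window held 1 match, the E-box that starts 126 bases before the start site. In the *Pdk4* window none of the 6 strings was found, which says only that these letters are not in these bases.

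The genes whose profile over the 8 mice was most like that of *Pdk4* were found by the root mean square (RMS) difference of log2 CPM after each gene's mean was taken off. *Ucp3*, a mitochondrial carrier of muscle that follows fatty acid supply, was nearest of 12550 genes with an RMS difference of 0.309, where the median gene had 0.950. It was 99.0, 163, 182 and 251 CPM in WT and 65.0, 281, 100.0 and 55.8 CPM in KL-/- mice. Like *Pdk4*, it was highest in KL-/- replicate 2 and, among WT mice, in replicate 4, and it did not pass the test (log2 fold change -0.47, FDR = 0.535). The next nearest were *Tph1* (0.452) and *Pcdhga12* (0.463), both at or under 3.77 CPM in every mouse.

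*Cpt1a*, which loads fatty acids for entry into mitochondria, was the fourth nearest gene at 0.480, and *Angptl4*, a secreted lipoprotein lipase inhibitor, the 20th at 0.582. Both were named after their values were seen. *Cpt1a* was 12.3, 14.9, 21.9 and 16.5 CPM in WT and 9.31, 27.3, 10.9 and 9.39 CPM in KL-/- mice. *Angptl4* was 1.76, 3.28, 12.3 and 4.16 CPM in WT and 0.663, 10.7, 1.33 and 1.62 CPM in KL-/- mice. In both genes KL-/- replicate 2 was the highest mutant and the other 3 mutants were below every WT mouse.

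For *Pdk2* the nearest genes were *Eif3f*, a translation initiation subunit (RMS difference 0.0529), *Echs1*, the enoyl-CoA hydratase of fatty acid and valine breakdown (0.0612), and *Mtch2*, an outer mitochondrial membrane insertase (0.0625), where the median gene had 0.322. All 3 had KL-/- replicate 2 as the lowest mutant, as *Pdk2* did. Their log2 fold changes were 0.46 (FDR = 0.0193), 0.45 (FDR = 0.0526) and 0.33 (FDR = 0.0343). These likenesses rest on 8 mice that share the genotype difference.

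**Figure D5:**
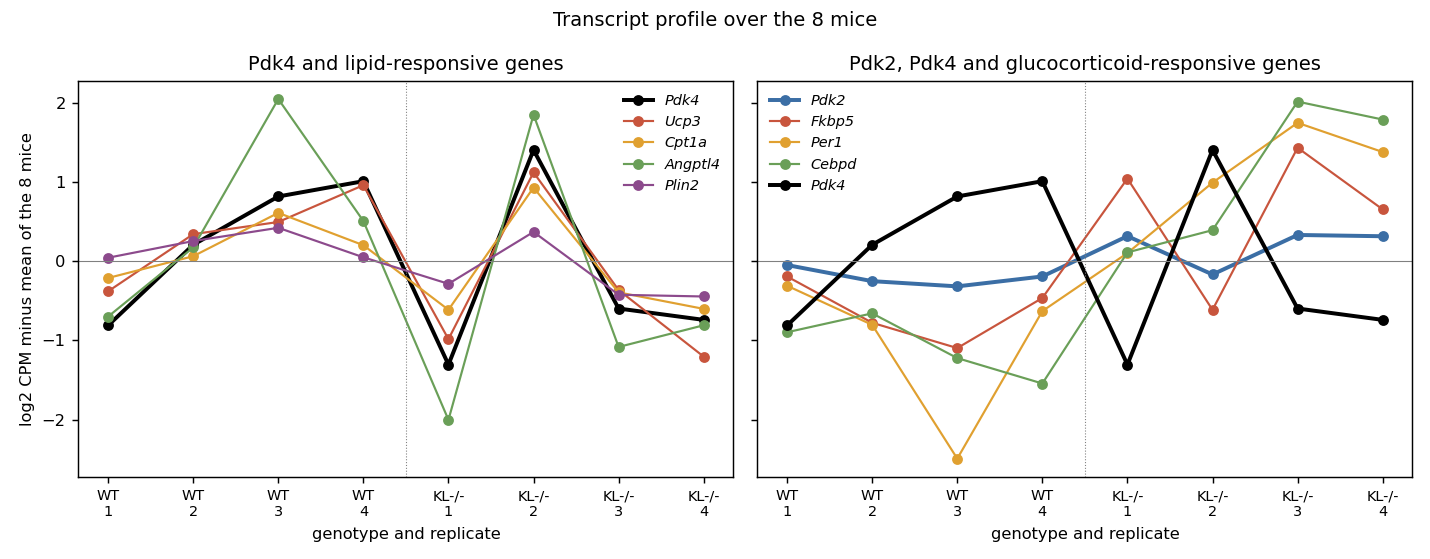
Log2 CPM minus the gene's mean over the 8 mice, 1 line per gene, WT mice left and KL-/- mice right of the dotted line. *Pdk4* and *Ucp3* are highest in WT replicate 4 among WT mice and in KL-/- replicate 2 among mutants, and in KL-/- replicate 2 *Pdk2* and *Fkbp5* are the lowest of the mutants. *Per1* and *Cebpd* are instead lowest of the mutants in KL-/- replicate 1.

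Of 18 listed regulators of *Pdk4* transcription, 2 rose, 0 fell and 16 did not pass, with a median log2 fold change of 0.22. Of all genes 7.35% were called higher and 6.67% lower, with a median of -0.016. DESeq2 and the likelihood ratio test each called 3 regulators higher and 1 lower. Limma-voom and the replicate block each called 1 higher and 0 lower. *Foxo4*, a forkhead factor of the insulin-restrained family, rose from 146 to 201 CPM in WT to 222 to 314 CPM in KL-/- muscle without overlap (log2 fold change 0.61, FDR = 0.0131), and passed in all 8 fits with 1 mouse left out. *Klf15*, a glucocorticoid-induced factor, was 34.2 to 54.1 CPM in WT and 45.7 to 85.4 CPM in KL-/- muscle (0.73, FDR = 0.0488), and passed in 2 of those 8 fits (without WT replicate 1 or KL-/- replicate 2), with an FDR of up to 0.128 without KL-/- replicate 4. Without KL-/- replicate 2 the list had 5 higher and 1 lower, the lower being the coactivator *Ppargc1b* (-0.59, FDR = 0.0359, and -0.51, FDR = 0.0602, with all mice). In that fit 1521 of all 12551 genes were called higher and 1234 lower. *Ppargc1a* was at 0.52 (FDR = 0.136) with all mice and passed without KL-/- replicate 2 (0.67, FDR = 0.0363).

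Of 25 listed PPAR, FOXO and glucocorticoid target genes, 6 rose, 0 fell and 19 did not pass (median log2 fold change 0.34). Of all genes 7.35% were called higher and 6.67% lower, with a median of -0.016. DESeq2 called 7 of the 25 higher, the likelihood ratio test 8, limma-voom 4 and the replicate block 2. Under that block 348 of all 12551 genes were called higher and 323 lower. *Cebpd*, an acute-response transcription factor, was 5.41 to 10.1 CPM in WT and 17.3 to 64.9 CPM in KL-/- muscle (2.37, FDR = 0.0103). *Per1*, a clock gene with a glucocorticoid response, was 11.2 to 51.1 CPM in WT and 68.1 to 213 CPM in KL-/- muscle (2.04, FDR = 0.0202). *Ddit4*, an inhibitor of mTORC1, was at 2.85 (FDR = 0.0266), with KL-/- replicate 3 far above the rest at 141 CPM and 1.73 (FDR = 0.0283) without it. *Acot1* (1.46), *Fkbp5* (1.40) and *Sesn1* (0.85) were the other 3, *Acot1* at no more than 1.45 CPM.

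*Cebpd* and *Sesn1* passed in all 8 fits with 1 mouse left out, *Acot1* in 6, *Per1* in 5, *Ddit4* in 3 and *Fkbp5* in 2. The highest FDR was 0.0581 for *Acot1* (without KL-/- replicate 3, lost also without WT replicate 3), 0.0558 for *Per1* (without WT replicate 2, lost also without KL-/- replicates 3 and 4), 0.0766 for *Ddit4* and 0.0969 for *Fkbp5* (both without WT replicate 3). *Ddit4* was lost without any of the 4 WT mice and without KL-/- replicate 4, and *Fkbp5* passed without WT replicate 1 or KL-/- replicate 2. Without KL-/- replicate 2 the list had 9 higher and 3 lower, where 1521 of all 12551 genes were called higher and 1234 lower. The 3 lower genes of the list were *Ucp3* (-1.23, FDR = 0.0248), *Cpt1a* (-0.73, FDR = 0.0258) and the lipid droplet coat gene *Plin2* (-0.58, FDR = 0.00894), beside *Pdk4* itself at -1.30. With all 8 mice none of these 3 passed the quasi-likelihood test (FDR = 0.535, 0.694 and 0.199). KL-/- replicate 2 was singled out by its *Pdk2* and *Pdk4* levels, and *Ucp3* and *Cpt1a* had profiles near that of *Pdk4*. The 3 calls are therefore no independent support for that of *Pdk4*. In KL-/- replicate 2 *Fkbp5* was 32.4 CPM, inside the WT range of 23.2 to 43.5 CPM, where the other mutants had 78.4 to 135 CPM. *Per1* and *Cebpd* went otherwise, their lowest mutant being KL-/- replicate 1.

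Upstream of the complex, 13 of 14 listed genes of pyruvate entry, lactate and other fates of pyruvate were measured, and 2 rose, 0 fell and 11 did not pass (median 0.11). Over all genes 7.35% were called higher and 6.67% lower. Under library totals 1 was called in each direction and the median was -0.011. The likelihood ratio and edgeR 3 tests called 1 higher each, and the replicate block called 0. *Gpt2*, the mitochondrial alanine aminotransferase, was 377, 368, 277 and 329 CPM in WT and 452, 432, 542 and 459 CPM in KL-/- mice, without overlap (log2 fold change 0.48, FDR = 0.0222). It was lost without KL-/- replicate 3 (FDR = 0.0577) and without KL-/- replicate 4. *Me3*, a mitochondrial malic enzyme, was at 0.25 (FDR = 0.0455) and passed in 2 of the 8 fits (without WT replicate 1 or KL-/- replicate 2), with 0.123 as the highest FDR, without KL-/- replicate 3. The pyruvate carrier genes *Mpc1* and *Mpc2* were at 0.11 (FDR = 0.527) and -0.025 (FDR = 0.860), and the lactate dehydrogenases *Ldha* and *Ldhb* at 0.063 (FDR = 0.674) and 0.13 (FDR = 0.692).

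The complex needs lipoate on E2 and thiamine pyrophosphate on E1. Of 13 listed genes that supply them, 12 were measured, and 0 rose, 2 fell and 10 did not pass (median -0.034). Over all genes 7.35% were called higher and 6.67% lower. DESeq2 called 1 of the 12 higher and 2 lower, the edgeR 3 test 1 lower and the replicate block 0. *Lipt2*, which starts lipoate transfer, was 4.41 to 5.45 CPM in WT and 3.15 to 4.01 CPM in KL-/- muscle (-0.45, FDR = 0.0447). It did not overlap between genotypes, and it passed in 1 of the 8 fits with 1 mouse left out (without KL-/- replicate 2), with 0.120 as the highest FDR, without KL-/- replicate 3.

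None of the 14 listed genes of mitochondrial content passed the test, and their summed level was 18421 to 20249 CPM in WT and 19407 to 22504 CPM in KL-/- mice (median log2 fold change 0.059, and -0.060 under library totals, where 2 were called lower). Markers of other cells were summed in the same way. Fibroblast and tendon markers summed to 1063 to 3911 CPM in WT and 595 to 1780 CPM in KL-/- mice (4 of 10 fell), macrophage markers to 67.1 to 140 and 47.1 to 81.9 CPM (2 of 10 fell), endothelial markers to 476 to 730 and 444 to 490 CPM (1 of 8 fell). Schwann cell markers summed to 52.7 to 93.8 CPM in WT and 97.9 to 119 CPM in KL-/- muscle (3 of 6 rose), and adipocyte markers to 202 to 230 and 230 to 309 CPM (1 of 7 rose). The fibroblast count was 0 without WT replicate 2, WT replicate 3 or KL-/- replicate 3 and 1 without WT replicate 1 or KL-/- replicate 4, and the macrophage count was 0 without WT replicates 2 or 3 or KL-/- replicates 3 or 4 and 1 without WT replicates 1 or 4. The adipocyte call passed only without KL-/- replicate 2 or 4 among the fits with 1 mouse left out. The endothelial count was 1 in all 8 of those fits, and the Schwann cell count was 3 in 6 of them and 2 without KL-/- replicate 3 or 4. Under the replicate block the fibroblast count was 1 and the macrophage and adipocyte counts were 0. No listed marker measured was at 0 in any library, and blood was represented by 1 measured gene of 5, which did not pass. The part of other cells in the values of *Pdk2* and *Pdk4* was not tested.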

How the data were processed

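RNA of TA muscles from 4 WT and 4 KL-/- mice was sequenced from 100 ng per library. The labels name a total RNA library kit, and the study's text names mRNA sequencing. Reads were mapped by the authors with STAR on mm10 and filtered for mapping quality, and they deposited featureCounts read counts per gene, not normalized and already limited to 12551 genes. The annotation and the strand setting are not given in the sources used here. No deposited column was left without a sample (0 unmapped).

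Counts were fitted in R 4.3.3 with edgeR 4.0.16 (TMM, genotype only, quasi-likelihood test, Benjamini-Hochberg FDR under 0.05 over all genes), a procedure tested on simulated data. Library totals of 20860262 to 29273758 counts limit precision for low genes. Log2 CPM used a prior count of 2. CPM per kilobase used the counted exons. Libraries of a genotype differed beyond sampling noise. Nothing ties mice of the same replicate number together, and the deviations of same-numbered mice correlated at -0.15, 0.18, -0.37 and 0.017. P-values set the difference between genotypes against the spread between mice.

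Alternatives were RLE factors, library totals, a minimum of 10 counts in every sample, DESeq2 1.42.0, limma-voom (limma 3.58.1), the likelihood ratio and edgeR 3 tests, the replicate block and each mouse left out. The edgeR 3 test was added after seeing the data. The members, gene lists and tests were chosen with earlier results of these data known. Named genes are the 10 members, up to 5 genes per pathway list by size of change among those past the FDR threshold, and the 3 genes with the smallest RMS difference from *Pdk4* and from each member past the threshold. Other named genes (among them *Sesn1*, a sixth called gene of its list, and *Pdhx*, *Pdp2*, *Cpt1a*, *Angptl4*, *Plin2*, *Ppargc1a*, *Ppargc1b*, *Mpc1*, *Mpc2*, *Ldha*, *Ldhb*) were chosen after values were seen. Of the listed genes past the threshold, 1 is not reported here by name but is included in its list's counts and median. No protein sequence was used here.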

Additional observations from a re-analysis of the deposited data

Results flagged for a closer look

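Of 20 groups of 4 mice (10 genes in 2 genotypes), 4 had 1 mouse far from the other 3 by Dixon's gap over range at the 95% level, all in KL-/- muscle. Chance gives such a mouse in about 1 in 20 groups. *Pdk2* was lowest in KL-/- replicate 2 with a gap of 0.962 of the range (580 CPM against 811 to 821 CPM). *Pdk4* was highest in the same mouse with a gap of 0.886 (1487 CPM against 227 to 370 CPM). *Pdk3* was lowest in KL-/- replicate 1 with a gap of 0.84, at 40 counts. *Pdpr* was highest in KL-/- replicate 1 with a gap of 0.855 (136 CPM against 122 to 124 CPM).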

How the results depend on the processing

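With all 8 mice 1759 genes were called. The count was 671 under the replicate block and ran from 762 without KL-/- replicate 3 to 2755 without KL-/- replicate 2, and the cause was not tested. It was 780, 775 and 778 without WT replicate 2, WT replicate 3 and KL-/- replicate 4. The members called higher went from 1 to 0 under library totals (*Pdk2* FDR = 0.0956), limma-voom (0.0507) and the replicate block (0.0715), where the block changed no other member's call. The numbers do not pair the mice. With 1 mouse left out the members called higher ranged from 0 to 1 and those called lower from 0 to 1, *Pdk4* being called without KL-/- replicate 2 alone. Library totals reversed the sign of *Pdk1* (-0.10), *Pdhb* (-0.075) and *Dld* (-0.0081), none of them called. With 1 mouse left out the log2 fold change ranged from -0.036 to 0.066 for *Pdk1*, from -0.13 to 0.068 for *Pdp1* and from -0.013 to 0.11 for *Pdhb*. *Pdk2* kept its call under RLE factors, the minimum of 10 counts, DESeq2, the likelihood ratio test and the edgeR 3 test, and *Pdk4* was not called under any setting that used all 8 mice. Leaving out the filter changed nothing, since all genes passed it. *Pdk3* rests on 26 to 52 counts per library, and the part of counting error in its spread was not tested.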

Other observations

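The sister complexes that share *Dld* were measured in 9 of 10 listed genes, and none passed edgeR's quasi-likelihood test with all 8 mice (median log2 fold change 0.12, 2 genes with an unadjusted p under 0.05). DESeq2, the likelihood ratio test and the fits without WT replicate 1 or KL-/- replicate 2 called 2 higher each, the fit without WT replicate 4 called 1 higher, and library totals called 1 lower. *Dhtkd1*, the E1 of 2-oxoadipate dehydrogenase, was 2.78, 1.71, 1.91 and 3.62 CPM in WT and 3.42, 4.68, 4.43 and 4.60 CPM in KL-/- muscle (0.75, FDR = 0.0575). Among the fits with 1 mouse left out it passed only without WT replicate 4. *Bckdhb*, the E1 beta subunit of branched-chain 2-oxoacid dehydrogenase, was 18.5 to 27.5 CPM in WT and 24.8 to 35.3 CPM in KL-/- muscle (0.46, FDR = 0.0638). It passed in 2 of the 8 fits with 1 mouse left out, without WT replicate 1 or KL-/- replicate 2 (0.56, FDR = 0.0201, for the latter). Its partner *Bckdha* was at -0.022 (FDR = 0.901) and its kinase *Bckdk* at 0.12 (FDR = 0.193). *Ogdh*, the E1 of 2-oxoglutarate dehydrogenase, was at 0.16 (FDR = 0.330) with all mice and passed without KL-/- replicate 2 (0.26, FDR = 0.0190). *Dlst*, its E2, was at -0.10 (FDR = 0.287). These genes were named after their values were seen.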
